A study of Mus musculus with 40 samples.

Results

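The transcripts described here were those of 9 genes that mark microglia, the resident macrophages of the brain: Ctss, Csf1r, Tmem119, C1qa, C1qb, C1qc, P2ry12, Cx3cr1 and Aif1. They were chosen by symbol, with earlier results of these data known, and made up 9 of the 32531 genes counted. All 9 passed the filter on low counts in each region. Their RNA was read in astrocyte pulldowns of adult Aldh1l1-EGFP/Rpl10a (JD130) mice, in which the Aldh1l1 promoter, active in astrocytes, drives an EGFP-tagged ribosomal protein, and anti-EGFP antibodies capture the tagged ribosomes together with bound RNA (translating ribosome affinity purification, TRAP). Every mouse in every group carried this transgene. Stressed mice had been put in direct contact with an aggressor of the CD1 strain on 10 days, each time for 10 minutes (social defeat), and then avoided social contact, with an interaction index below 1. Resilient mice had the same exposure and an index above 1. Control mice were group housed and not defeated. Tissue was taken 2 days after the last defeat, and each library pooled 2 mice, or 4 to 6 mice for the nucleus accumbens. There were 5 stressed, 4 resilient and 3 control libraries of the prefrontal cortex, 5, 3 and 3 of the hippocampus, 4, 3 and 3 of the nucleus accumbens and 3, 2 and 2 of the caudate putamen. The age of the mice beyond "adult" was not given, and unpurified input tissue was not analysed here, so neither enrichment nor depletion of these transcripts was measured.

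Microglia depend on signals through the receptor CSF1R, survey the tissue through fractalkine and purine receptors, and take up debris that is digested by lysosomal proteases such as cathepsin S. In the brain they are the main source of the complement component C1q, which tags synapses and debris for removal. Microglia are not known to use the Aldh1l1 promoter, so their transcripts were not the target of the pulldown. In bulk libraries, fewer cells of a type and less RNA per cell cannot be told apart.

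Ctss, which encodes cathepsin S, lies on chromosome 3 (mm10 3:95526786-95556403, plus strand). C1qa, C1qb and C1qc encode the chains of C1q and lie side by side on the minus strand of chromosome 4, between 136880129 and 136898803. Promoter sequence (RefSeq, build GRCm38.p6, which is mm10) was at hand for 6 of the 9 genes: Ctss, C1qb, C1qc, P2ry12, Cx3cr1 and Aif1. Windows of 250 bases before and 30 bases after the start were searched on both strands for GAGGAAGT, a site of PU.1, the transcription factor of myeloid cells, for its ETS core GGAAGT, which lies within it, and for GAAANNGAAA, an element of interferon-responsive promoters. The PU.1 letters were in 2.82% of 32851 mouse promoters of the same length, and among the 6 in those of Ctss and C1qc. The ETS core was in 22.3% of all promoters and in those of Ctss, C1qb, C1qc and P2ry12. The interferon letters were in 3.28% of all promoters and in those of Ctss and Aif1. The promoters of Ctss (chr3:95526536-95526815, plus strand) and C1qc (chr4:136892885-136893164, minus strand) are shown because they hold the PU.1 letters, which read as their reverse complement here. Capitals mark the PU.1 and interferon matches.
Ctss promoter: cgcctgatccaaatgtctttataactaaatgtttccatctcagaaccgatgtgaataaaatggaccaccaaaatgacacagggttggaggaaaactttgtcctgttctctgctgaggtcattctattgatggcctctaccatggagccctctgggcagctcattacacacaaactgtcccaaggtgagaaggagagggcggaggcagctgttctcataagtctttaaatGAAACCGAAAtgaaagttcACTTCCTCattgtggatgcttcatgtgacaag
C1qc promoter: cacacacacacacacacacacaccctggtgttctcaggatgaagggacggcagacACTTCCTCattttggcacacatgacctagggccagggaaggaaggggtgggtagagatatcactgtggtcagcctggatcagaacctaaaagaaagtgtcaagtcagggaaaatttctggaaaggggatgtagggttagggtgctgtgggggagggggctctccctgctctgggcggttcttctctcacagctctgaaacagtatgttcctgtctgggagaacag
The Ctss promoter held both motifs close together, the interferon letters at −21 to −12 and the PU.1 letters at −2 to 6 relative to the start. In C1qc the PU.1 letters lay at −195 to −188.

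The members were rare in these libraries. A library held 21.3 to 33.0 M counts in genes (median 25.6 M), and a member had between 9 and 459 of them. The summed level of the 9 members was 11.7 to 75.4 counts per M counts (CPM), while the summed level of 14 astrocyte markers in the prefrontal libraries was 35002 to 44056 CPM in stressed, 39436 to 49292 CPM in resilient and 43968 to 45079 CPM in control mice. No astrocyte marker was at 0 in any group. Per kb of the longest transcript, the median level over 40 libraries was highest for C1qb (3.30 CPM per kb), followed by P2ry12 (2.34), C1qc (2.21), Aif1 (1.43), Ctss (1.25), C1qa (1.23), Tmem119 (0.968), Csf1r (0.681) and Cx3cr1 (0.330). Csf1r, P2ry12 and Cx3cr1 overlap exons of another gene on the opposite strand (Hmgxb3, Med12l and Gm33858), and the strand setting of the counting is not given in the sources used here, so reads of these pairs cannot be told apart.

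Libraries stood apart in ways that the condition labels do not name. In 12 libraries Apoe, an abundant astrocyte transcript, was at 16807 to 23452 CPM, against 3987 to 10632 CPM in the other 28. They were 9 of 17 stressed, 0 of 12 resilient and 3 of 11 control libraries: stressed 1, 2 and 3 of the prefrontal cortex, stressed 4 and 5 and control 1 of the hippocampus, stressed 1 and 2 and control 2 of the nucleus accumbens, and stressed 1 and 2 and control 1 of the caudate putamen. In another 6 libraries, all of them stressed, long genes were higher relative to short genes (correlation across genes of the library's log2 deviation with transcript length 0.417 to 0.528, against −0.344 to 0.239 in the rest). These were stressed 4 and 5 of the prefrontal cortex, stressed 2 and 3 of the hippocampus, stressed 4 of the nucleus accumbens and stressed 3 of the caudate putamen. Only 2 of 17 stressed libraries, stressed 1 of the hippocampus and stressed 3 of the nucleus accumbens, were neither. The deposited files are named in a long and a short form, whose meaning is not given, and all 12 high-Apoe libraries have the short form.

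**Figure D1:**
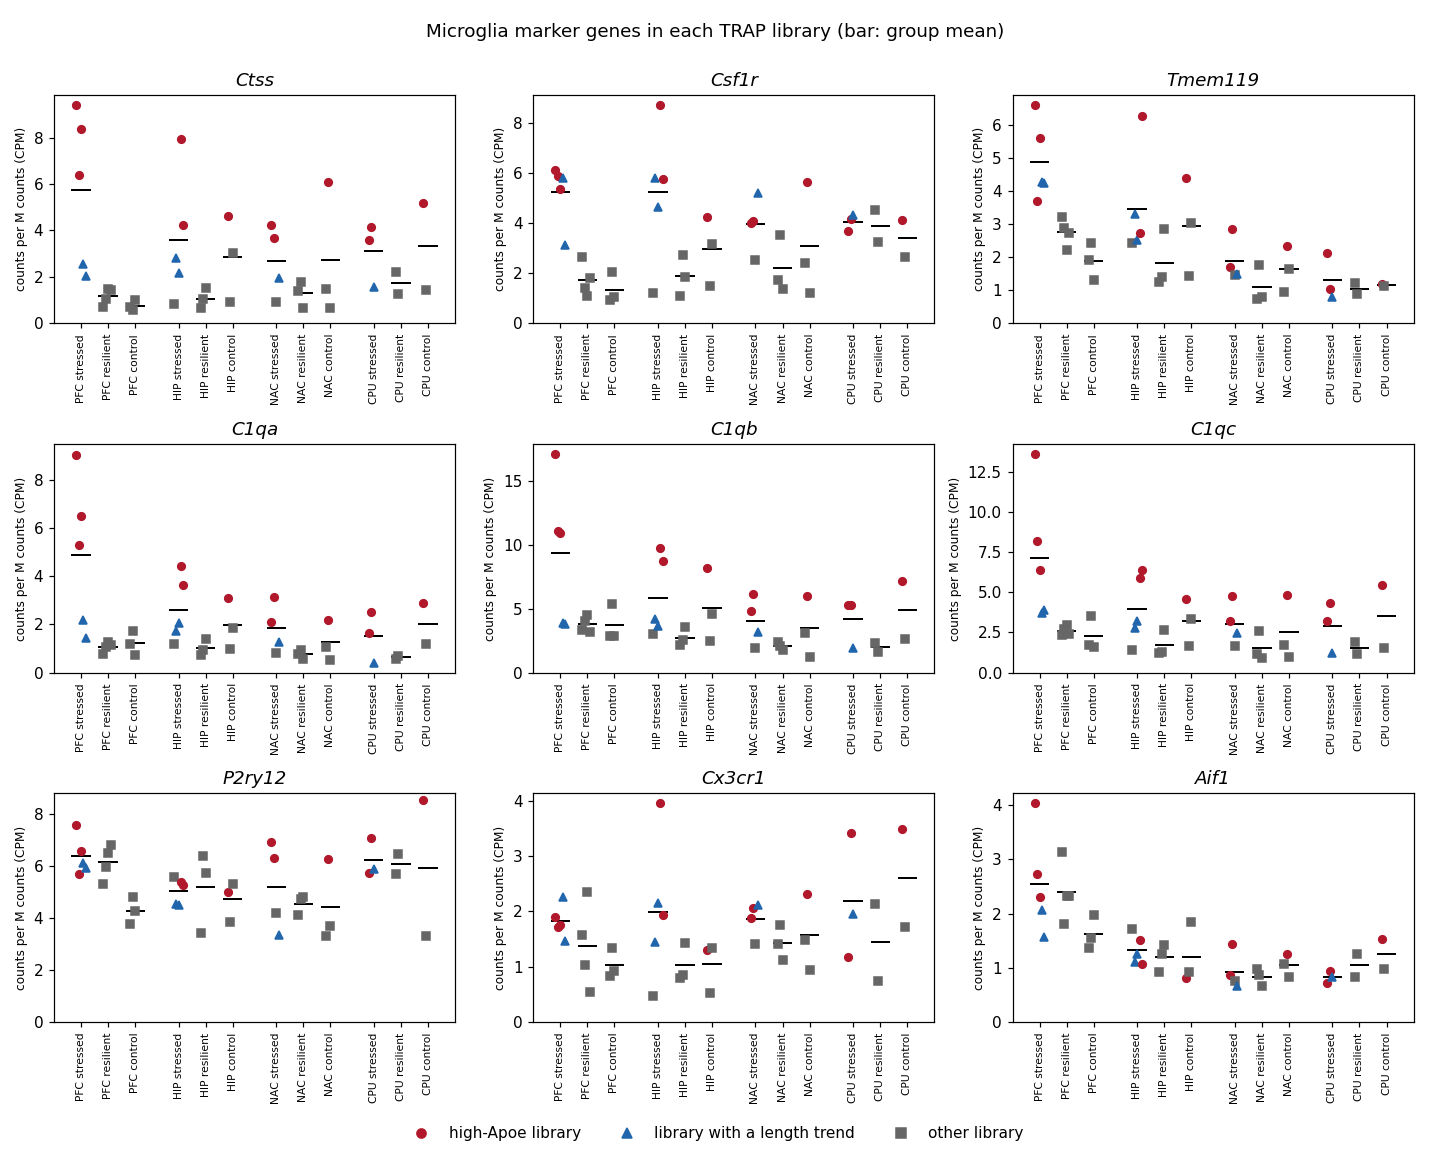
Level of each member (CPM, linear axis from 0) in the 40 libraries, by region (PFC prefrontal cortex, HIP hippocampus, NAC nucleus accumbens, CPU caudate putamen) and condition; points are libraries, bars are group means, and the symbol gives the kind of library. Stressed libraries of the prefrontal cortex reached 9.40 CPM of Ctss, against at most 1.47 CPM in resilient and 0.991 CPM in control libraries of that region.

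In the prefrontal cortex of stressed mice 7 of the 9 members rose against control mice: Ctss, Csf1r, Tmem119, C1qa, C1qb, C1qc and P2ry12. Against resilient mice 6 rose, the same genes without P2ry12. Cx3cr1 and Aif1 passed the test in neither comparison. A gene is called higher or lower here when its Benjamini-Hochberg adjusted p in edgeR's quasi-likelihood test over all genes is under 0.05. The background was 16.4% of genes called higher in stressed against control mice and 14.3% in stressed against resilient mice. The members were chosen with earlier results of these data known, so an excess over this background is not independent support. Both comparisons share the stressed libraries, so they are not independent of each other. Every stressed library of this region has high Apoe or a length trend, and no resilient or control library of the region has either. Stress and the kind of library therefore cannot be told apart in these comparisons. The median log2 fold change of the members was 1.42 against control and 1.42 against resilient mice, beside 0.04 and 0.03 over all genes tested.

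Ctss, the lysosomal and secreted protease, showed the largest change among the 9. It stood at 9.40, 6.41, 8.36, 2.54 and 2.05 CPM in stressed libraries, at 0.713, 1.05, 1.47 and 1.45 CPM in resilient libraries and at 0.699, 0.585 and 0.991 CPM in control libraries. Every stressed library lay above every resilient and control library, and stressed libraries 1 to 3 lay far above stressed libraries 4 and 5. The log2 fold change was 2.98 ± 0.573 (SE, adjusted p = 0.00364, edgeR) against control mice and 2.39 ± 0.483 (adjusted p = 0.00508, edgeR) against resilient mice.

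Csf1r, the receptor for the survival signals CSF1 and IL-34, was spread differently over the same libraries. It stood at 6.13, 5.88, 5.35, 5.81 and 3.11 CPM in stressed, 2.65, 1.42, 1.10 and 1.81 CPM in resilient and 0.946, 2.05 and 1.03 CPM in control libraries. Every stressed library lay above every resilient and control library, resilient and control libraries overlapped, and stressed library 4 lay within the range of stressed libraries 1 to 3. It rose by 2.02 ± 0.366 against control mice (log2, SE, adjusted p = 0.0028, edgeR) and by 1.67 ± 0.319 against resilient mice (adjusted p = 0.00384, edgeR). Tmem119, a membrane protein used to tell microglia from other macrophages, was at 6.62, 3.70, 5.62, 4.29 and 4.26 CPM in stressed, 3.21, 2.90, 2.21 and 2.72 CPM in resilient and 1.93, 2.43 and 1.32 CPM in control libraries. Its stressed libraries were also all above the others, with changes of 1.42 ± 0.27 (adjusted p = 0.00343, edgeR) against control and 0.90 ± 0.235 (adjusted p = 0.0162, edgeR) against resilient mice.

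The C1q genes were high in stressed libraries 1 to 3 and close to the other groups in stressed libraries 4 and 5. C1qa was at 9.07, 5.31, 6.52, 2.17 and 1.43 CPM in stressed, 0.792, 1.05, 1.29 and 1.16 CPM in resilient and 1.19, 1.71 and 0.734 CPM in control libraries, so that stressed library 5 lay within the range of control libraries. C1qb was at 17.1, 11.1, 10.9, 3.92 and 3.77 CPM in stressed, 3.37, 4.03, 4.52 and 3.19 CPM in resilient and 2.88, 5.39 and 2.90 CPM in control libraries. Both low stressed libraries of C1qb lay within the range of either other group. C1qc was at 13.6, 8.19, 6.40, 3.73 and 3.89 CPM in stressed, 2.34, 2.69, 2.94 and 2.39 CPM in resilient and 1.69, 3.51 and 1.58 CPM in control libraries. For C1qc all stressed libraries lay above the others, and the resilient libraries lay within the range of the control libraries. Against control mice the changes were 2.10 ± 0.575 for C1qa (log2, SE, adjusted p = 0.019, edgeR), 1.41 ± 0.492 for C1qb (adjusted p = 0.0484) and 1.74 ± 0.46 for C1qc (adjusted p = 0.0162). Against resilient mice they were 2.29 ± 0.519 for C1qa (adjusted p = 0.00874, edgeR), 1.42 ± 0.442 for C1qb (adjusted p = 0.0336) and 1.57 ± 0.407 for C1qc (adjusted p = 0.0158).

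P2ry12, the purine receptor that guides microglial processes, and Cx3cr1, the fractalkine receptor, differed less. P2ry12 was at 7.58, 5.70, 6.60, 6.13 and 5.94 CPM in stressed, 5.31, 5.95, 6.51 and 6.81 CPM in resilient and 3.78, 4.81 and 4.26 CPM in control libraries. Stressed and resilient libraries overlapped, and both lay above all control libraries. It rose by 0.62 ± 0.173 against control mice (log2, SE, adjusted p = 0.0207, edgeR), and its difference from resilient mice was 0.12 ± 0.154 (adjusted p = 0.581, edgeR). Resilient against control mice differed by 0.49 ± 0.179 (unadjusted p = 0.0166, adjusted p = 1, edgeR). Cx3cr1 was at 1.90, 1.71, 1.76, 2.26 and 1.47 CPM in stressed, 1.58, 1.02, 2.35 and 0.543 CPM in resilient and 0.822, 1.34 and 0.918 CPM in control libraries. Its stressed and control libraries did not overlap, but the difference of 0.86 ± 0.372 did not pass (adjusted p = 0.0994, edgeR). Aif1, which encodes the cytoplasmic actin-binding protein IBA1, was at 4.05, 2.74, 2.30, 2.07 and 1.56 CPM in stressed, 3.13, 1.81, 2.32 and 2.32 CPM in resilient and 1.36, 1.55 and 1.98 CPM in control libraries. Its groups overlapped, with differences of 0.70 ± 0.326 (adjusted p = 0.12, edgeR) from control and 0.18 ± 0.287 (adjusted p = 0.669) from resilient mice.

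The calls of the C1q genes and of P2ry12 changed with which stressed libraries were in the fit. Without stressed libraries 1 to 3, the high-Apoe libraries, 3 members were called higher in both comparisons (Ctss, Csf1r and Tmem119), where the background was 26.7% against control and 25.2% against resilient mice. Ctss then differed by 1.53 ± 0.368 from control (adjusted p = 0.00302, edgeR) and by 0.95 ± 0.331 from resilient mice (adjusted p = 0.0294). Csf1r differed by 1.68 ± 0.401 and 1.34 ± 0.364 and Tmem119 by 1.13 ± 0.268 and 0.62 ± 0.246. C1qb stood at −0.00 ± 0.28 and 0.02 ± 0.264, C1qa at 0.52 ± 0.377 and 0.73 ± 0.355, and C1qc at 0.71 ± 0.306 and 0.55 ± 0.285, none past the test. The 2 stressed libraries that remain in this fit are those with a length trend, in which long genes were higher. The longest transcripts of the 3 called members have 4701 (Csf1r), 2242 (Tmem119) and 1355 bases (Ctss). Those of the members not called have 875 (Aif1), 1040 (C1qa), 1088 (C1qb), 1203 (C1qc), 2344 (P2ry12) and 4493 bases (Cx3cr1). The part of transcript length in these calls was not tested.

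Without stressed libraries 4 and 5, 8 members were called higher against control mice, Aif1 now among them (0.97 ± 0.278, adjusted p = 0.0119, edgeR), and 6 against resilient mice, with a background of 19.9% in either comparison. Ctss then differed by 3.47 ± 0.292 from control and 2.87 ± 0.248 from resilient mice. Stressed libraries 4 and 5 were the lowest stressed libraries for Ctss, the C1q genes and Aif1. Leaving them out therefore raises these differences, and this fit is no independent support for them. Ctss, Csf1r and Tmem119 were therefore called higher against both groups in each of these fits. Without stressed libraries 1 to 3, however, 3 of 9 members is a share not far above the background (26.7% and 25.2%). That count alone does not set the members apart from other genes in that fit. The libraries whose files carry the long name hold stressed libraries 4 and 5. Within them 3 members were called in either comparison (background 29.5% against control and 27.3% against resilient mice), again not far above the background. The short names hold stressed libraries 1 to 3 but only 1 resilient and 1 control library, which are assumed to vary like the stressed ones. That fit called 6 members against control mice (background 14.1%) and 6 against resilient mice (background 11.5%), and the 6 against resilient mice included Cx3cr1 (adjusted p = 0.0256, edgeR) and not Tmem119 (adjusted p = 0.051). Without control library 1 or control library 3, the count against control mice was 3, the same Ctss, Csf1r and Tmem119, with a background of 5.74% without the first and 12.4% without the other.

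**Figure D2:**
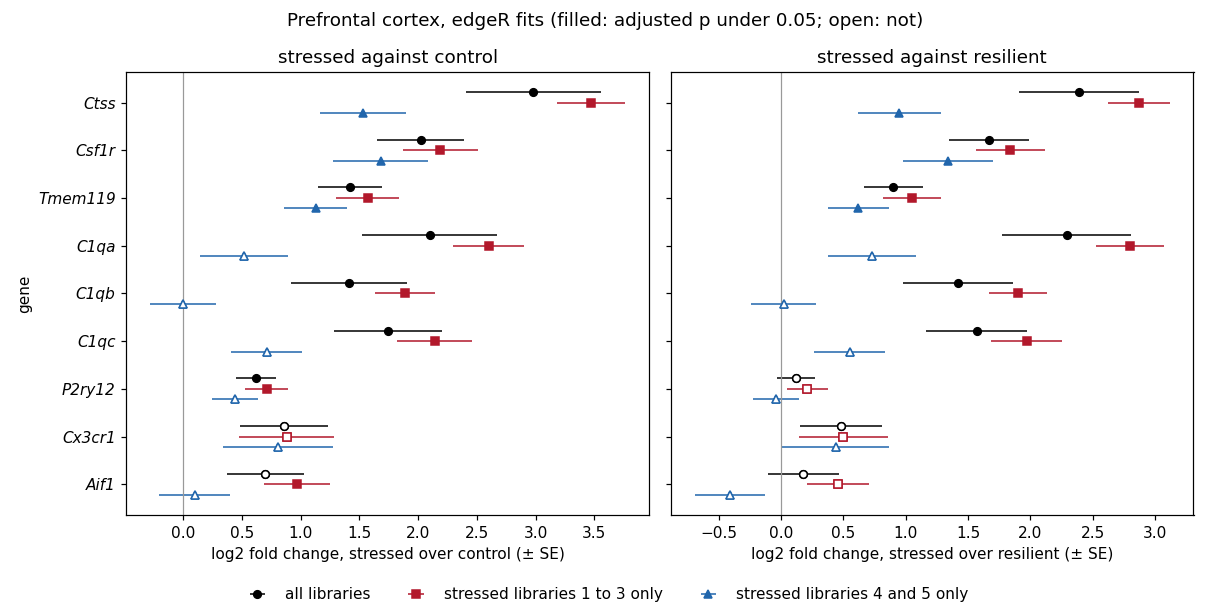
Log2 fold change (± SE, edgeR) of each member in the prefrontal cortex, stressed over control (left) and stressed over resilient (right), with all libraries, with stressed libraries 1 to 3 only and with stressed libraries 4 and 5 only; filled symbols passed an adjusted p of 0.05. Ctss, Csf1r and Tmem119 were called in every fit shown, while C1qb was at −0.00 and 0.02 with stressed libraries 4 and 5 only.

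The makeup of the 9-gene sum differed between prefrontal libraries as well. The sum was 75.4, 50.8, 53.8, 32.9 and 27.5 CPM in stressed, 23.1, 21.9, 24.7 and 22.4 CPM in resilient and 15.3, 23.4 and 15.7 CPM in control libraries. Ctss made up 7.45% to 15.5% of it in stressed, 3.09% to 6.47% in resilient and 2.50% to 6.31% in control libraries. P2ry12 made up 10.1% to 21.6% in stressed, 23.0% to 30.4% in resilient and 20.6% to 27.1% in control libraries. Aif1 made up 4.28% to 6.30% in stressed, 8.28% to 13.6% in resilient and 6.62% to 12.6% in control libraries. The markers therefore did not move in 1 ratio: the share of Ctss was larger, and that of Aif1 smaller, in every stressed library than in any resilient or control library. The closest libraries rest on few counts. They were 7.45% (50 counts, stressed 5) and 6.47% (40 counts, resilient 4) for Ctss. For Aif1 they were 6.30% (45 counts, stressed 4) and 6.62% (37 counts, control 2). The shares were not tested.

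**Figure D3:**
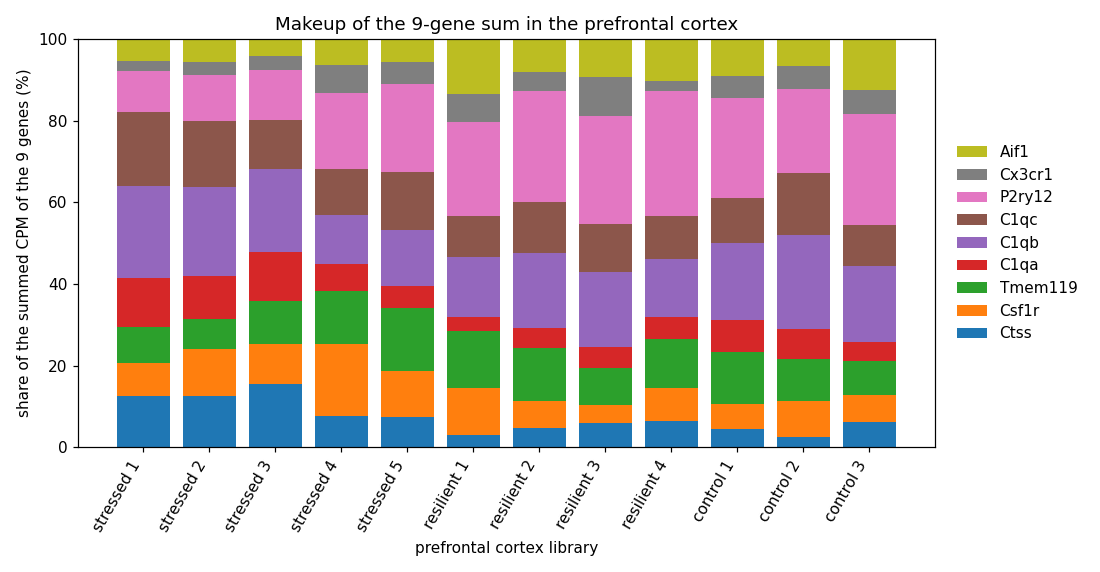
Share of each member (%) in the summed CPM of the 9 genes, 1 stacked bar per prefrontal library. Ctss (bottom) took 7.45% to 15.5% in stressed libraries, against at most 6.47% in resilient and 6.31% in control libraries.

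Other gene lists were read beside the members in the prefrontal cortex, in stressed against control mice. Over all genes tested, 16.4% were called higher and 11.7% lower in this comparison. Those shares were 26.7% and 21.9% without stressed libraries 1 to 3, and 19.9% and 18% without stressed libraries 4 and 5, so a list's count in those fits has a larger background. Of 18 other genes of resting microglia, 8 rose and 1 fell (median 0.88 over the list, against 0.04 over all genes). Lpcat2 rose by 1.68 ± 0.356 (adjusted p = 0.0058, edgeR), Fcrls by 1.75 ± 0.413 (adjusted p = 0.00977) and Trem2, a lipid receptor of microglia, by 1.60 ± 0.397 (adjusted p = 0.0122), while Entpd1, an ATP-degrading ectoenzyme, fell by 0.74 on the log2 scale (adjusted p = 0.00364). Without stressed libraries 1 to 3, 1 of the 18 was called higher and 1 lower, and without stressed libraries 4 and 5, 12 were called higher and 1 lower. The summed level of this list was 86.6 to 107 CPM in stressed, 87.5 to 97.2 CPM in resilient and 82.4 to 96.5 CPM in control libraries.

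Of 14 cathepsins, their inhibitors and other lysosomal genes, 9 rose and 0 fell (median 1.05). An unadjusted p under 0.05 was found for 13 of the 14, as for 42.1% of all genes, and DESeq2 called 12 higher, beside 20.2% of all genes. Lgmn, a lysosomal protease that matures cathepsins, rose by 1.13 ± 0.231 (adjusted p = 0.00487, edgeR), Ctsa by 1.23 ± 0.262 (adjusted p = 0.00621), Ctsb by 1.10 ± 0.269 (adjusted p = 0.0113) and Ctsd by 1.05 ± 0.258 (adjusted p = 0.0116). Ctsb averaged 736 ± 192 CPM in stressed, 427 ± 101 CPM in resilient and 356 ± 49.5 CPM in control libraries (SD, n = 5, 4 and 3). Astrocytes also make these proteases, and cystatin C, their inhibitor, is abundant in astrocytes. Without stressed libraries 1 to 3, 4 of the 14 were called higher, a share near the 26.7% of all genes called higher in that fit. Without stressed libraries 4 and 5, 13 were called higher.

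Of 12 tested genes of the CSF1 receptor pathway, 3 rose and 1 fell (median 0.34), a share not far from that over all genes. The ligands Csf1 (0.66 ± 0.191, adjusted p = 0.023, edgeR) and Il34 (0.42 ± 0.146, adjusted p = 0.0463) and the kinase Syk (0.92 ± 0.287, adjusted p = 0.0319) rose, and Cebpa, a transcription factor of myeloid cells, fell by 0.47 (adjusted p = 0.0489). Against resilient mice, where 14.3% of all genes were called higher and 10.7% lower, none of this list rose and Cebpa fell (edgeR and DESeq2 alike, with 3 genes at an unadjusted p under 0.05). Without stressed libraries 1 to 3, 4 of the 12 were called higher, and without stressed libraries 4 and 5, 1 was called higher and 1 lower. Of 10 tested complement partners 4 rose (1 of 10 without stressed libraries 1 to 3, 4 of 8 without stressed libraries 4 and 5), among them C1ra, a protease that binds C1q (2.15 ± 0.627, adjusted p = 0.0243, edgeR), Clu (1.20 ± 0.383, adjusted p = 0.0345) and C4b (0.81 ± 0.275, adjusted p = 0.0435). Clu and C4b are also made by astrocytes. Of 9 tested partners of fractalkine and purine signalling 3 rose (2 without stressed libraries 1 to 3, where 1 was lower, and 5 without stressed libraries 4 and 5). Cx3cl1, the neuronal ligand of the fractalkine receptor, rose by 1.65 ± 0.404 (adjusted p = 0.0115, edgeR), Adam10, which sheds it, by 0.85 ± 0.145 (adjusted p = 0.00206) and Entpd2 by 1.04 ± 0.308 (adjusted p = 0.0256).

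Of 19 genes of activated microglia, 10 could be tested and 4 rose: Lpl (2.13 ± 0.353, adjusted p = 0.00188, edgeR), Ptgs2 (1.77 ± 0.564, adjusted p = 0.034), Cd9 (1.17 ± 0.387, adjusted p = 0.0405) and Axl (0.88 ± 0.292, adjusted p = 0.0413). Ptgs2 is known from excitatory neurons, and Cd9 and Axl from astrocytes too. Without stressed libraries 1 to 3, 2 of 9 were called higher, and without stressed libraries 4 and 5, 6 of 10. Itgax, Cst7 and Ccl3, also genes of the activated state, had no count in any stressed library of the prefrontal cortex. Ccl3 had none in any resilient or control library there either, and Itgax, Ccl4 and Tnf had none in control libraries.

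Markers of other cells were also called higher in stressed prefrontal libraries, mostly with a different spread over these libraries than the C1q genes and Ctss. Of 12 neuron markers 8 rose against control mice (summed level 2840 to 6040 CPM in stressed, 2432 to 3003 CPM in resilient and 2133 to 2970 CPM in control libraries), and of 8 tested endothelial markers 3 rose (23.0 to 63.6 CPM in stressed, 12.9 to 15.7 CPM in resilient and 11.1 to 16.4 CPM in control libraries). The neuron sum was 2840, 3085 and 3069 CPM in stressed libraries 1 to 3 and 6040 and 5522 CPM in stressed libraries 4 and 5, where C1qb was at the level of the other groups. The endothelial sum was 31.1, 28.3 and 23 CPM in stressed libraries 1 to 3 and 63.6 and 34.4 CPM in stressed libraries 4 and 5, all above the other groups. Of 8 oligodendrocyte markers 3 rose, while their summed level overlapped between the groups (717 to 1151 CPM in stressed, 854 to 983 CPM in resilient and 798 to 1044 CPM in control libraries). Of 14 astrocyte markers 4 rose and 1 fell. Without stressed libraries 1 to 3, 12 neuron and 8 endothelial markers were called higher against control mice, and without stressed libraries 4 and 5 these counts were 7 and 3. The part of these cells in the result was not tested. Macrophages of the brain's borders share most members, so 10 of their markers were read: their summed level was 10.3 to 14.8 CPM in stressed, 7.88 to 11.8 CPM in resilient and 6.31 to 11 CPM in control libraries, and none of the 10 was at 0. Of the 8 tested, none was called against control mice by edgeR or DESeq2 (1 at an unadjusted p under 0.05), and 2 were called against resilient mice, Ms4a7 (2.75 ± 0.611, adjusted p = 0.00806, edgeR) and Stab1 (1.94 ± 0.555, adjusted p = 0.024). Markers of blood leukocytes summed to 4.20 to 5.90 CPM in stressed, 6.99 to 9.55 CPM in resilient and 8.08 to 11.2 CPM in control libraries, and Ly6c2, Plac8 and Cd3g had no count in any stressed library.

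In the hippocampus no member was called in any of the 3 comparisons, nor was any gene (background 0% in each, edgeR). Ctss was at 0.823, 2.82, 2.18, 7.93 and 4.25 CPM in stressed, 0.639, 1.03 and 1.5 CPM in resilient and 4.63, 0.915 and 3.03 CPM in control libraries. The high values were those of stressed 4 and 5 and control 1, the high-Apoe libraries, with control 3 next among the controls. Stressed against control mice differed by 0.34 ± 0.684 (adjusted p = 0.82, edgeR), with 0 members at an unadjusted p under 0.05, and stressed against resilient mice by 1.81 ± 0.742 (unadjusted p = 0.0316, adjusted p = 0.272). In that second comparison 4 members had an unadjusted p under 0.05 (Ctss, Csf1r, C1qa and C1qc), as had 17.2% of all genes. DESeq2 called none of the members there, with 5 at an unadjusted p under 0.05. The DESeq2 share over all genes is not reported here, so that count has no background. The stressed against resilient differences of the other members ran from −0.03 ± 0.244 for P2ry12 to 1.5 ± 0.589 for Csf1r.

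C1qb, the C1q chain with most counts, was at 3.02, 4.22, 3.63, 9.75 and 8.73 CPM in stressed, 2.16, 2.53 and 3.54 CPM in resilient and 8.19, 2.51 and 4.55 CPM in control libraries of the hippocampus. Csf1r was at 1.21, 5.78, 4.65, 8.72 and 5.74 CPM in stressed, 1.08, 2.71 and 1.83 CPM in resilient and 4.26, 1.47 and 3.17 CPM in control libraries. For both genes stressed library 1, which belongs to neither set of libraries that stand apart, was within the range of resilient mice. Within the short-named hippocampal libraries, which are stressed 4 and 5, resilient 1 and 2 and control 1, 4 members were called higher in stressed against resilient mice, Ctss, C1qa, C1qb and C1qc, beside a background of 4%. Both stressed libraries and the control library in that fit are high-Apoe libraries, and neither resilient library is.

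The nucleus accumbens and caudate putamen had no member and no gene called in any comparison by edgeR (background 0% in each of the 6). Ctss in the accumbens was at 4.22, 3.68, 0.919 and 1.94 CPM in stressed, 1.41, 1.80 and 0.661 CPM in resilient and 1.49, 6.08 and 0.666 CPM in control libraries. In the caudate putamen it was at 3.59, 4.17 and 1.58 CPM in stressed, 2.19 and 1.25 CPM in resilient and 5.19 and 1.45 CPM in control libraries. In both regions the highest library of stressed and of control mice was a high-Apoe library, and the groups overlapped. Stressed against control mice differed by 0.00 ± 0.74 (adjusted p = 1, edgeR) in the accumbens and by −0.02 ± 0.619 (adjusted p = 0.994) in the caudate putamen. Among the 9 members, 1 (C1qa, stressed against resilient, accumbens) had an unadjusted p under 0.05 over these 6 comparisons (edgeR). Of all genes, 1.98% had one in that comparison, and 0.779% to 9.56% over the 6. DESeq2 called none of the members either. It had 2 at an unadjusted p under 0.05 in stressed against resilient accumbens. In the caudate putamen it had 1 in stressed against resilient and 2 in resilient against control mice. The DESeq2 shares over all genes are not reported here, so these counts have no background.

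Between resilient and control mice no member was called in any region by edgeR (background 0% in each) or by DESeq2. The 1 member with an unadjusted p under 0.05 in edgeR was P2ry12 in the prefrontal cortex, where 2.35% of all genes had one. The Ctss differences, resilient minus control, were 0.59 ± 0.594 in the prefrontal cortex, −1.47 ± 0.792 in the hippocampus, −1.18 ± 0.823 in the nucleus accumbens and −0.94 ± 0.704 in the caudate putamen. The resilient groups hold no high-Apoe library, and the control groups of the last 3 regions hold 1 each.

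Ordered by mean, Ctss stood at 5.75 ± 3.34 CPM (SD, n = 5) in stressed prefrontal cortex, 3.60 ± 2.72 in stressed hippocampus (n = 5), 3.32 ± 2.64 in control caudate putamen (n = 2), 3.11 ± 1.36 in stressed caudate putamen (n = 3), 2.86 ± 1.86 in control hippocampus (n = 3), 2.75 ± 2.92 in control accumbens (n = 3), 2.69 ± 1.53 in stressed accumbens (n = 4), 1.72 ± 0.664 in resilient caudate putamen (n = 2), 1.29 ± 0.581 in resilient accumbens (n = 3), 1.17 ± 0.361 in resilient prefrontal cortex (n = 4), 1.06 ± 0.43 in resilient hippocampus (n = 3) and 0.759 ± 0.209 in control prefrontal cortex (n = 3). No 2 neighbours in this order differed by more than the larger of their SDs. All 4 resilient groups were among the lowest 5.

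In control mice the joint test of the 4 regions called none of the members, beside 18.8% of all genes (edgeR; 0 members at an unadjusted p under 0.05, and DESeq2 called none). Of single regions set against the others, the background was 12.7% for the prefrontal cortex, 13.5% for the hippocampus, 2.17% for the nucleus accumbens and 5.61% for the caudate putamen, and no member was called in any. The Ctss difference of control prefrontal cortex from the other regions was −2.01 ± 0.798 (unadjusted p = 0.0287, adjusted p = 0.12, edgeR), and no control library of the prefrontal cortex is a high-Apoe library. Unadjusted p-values under 0.05 were also found for Csf1r in the prefrontal cortex (−1.26 ± 0.542, adjusted p = 0.144, edgeR), Tmem119 in the hippocampus (0.96 ± 0.384, adjusted p = 0.13) and Cx3cr1 in the caudate putamen (1.16 ± 0.435, adjusted p = 0.158). Over all genes such values made up 30.5% in the prefrontal cortex, 27.4% in the hippocampus and 20.1% in the caudate putamen. Whether the effect of stress differed between the regions was tested over all 40 libraries. No gene was called for stressed minus control or for stressed minus resilient (background 0% in each, edgeR). Ctss had an unadjusted p of 0.0252 (adjusted p = 0.335, edgeR) for stressed minus control and of 0.525 (adjusted p = 0.859) for stressed minus resilient. It was the only member under 0.05 in either. Over all genes, 12.6% were under 0.05 for stressed minus control and 6.97% for stressed minus resilient. So the change in the prefrontal cortex is not shown to differ from that in the other regions.

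**Figure D4:**
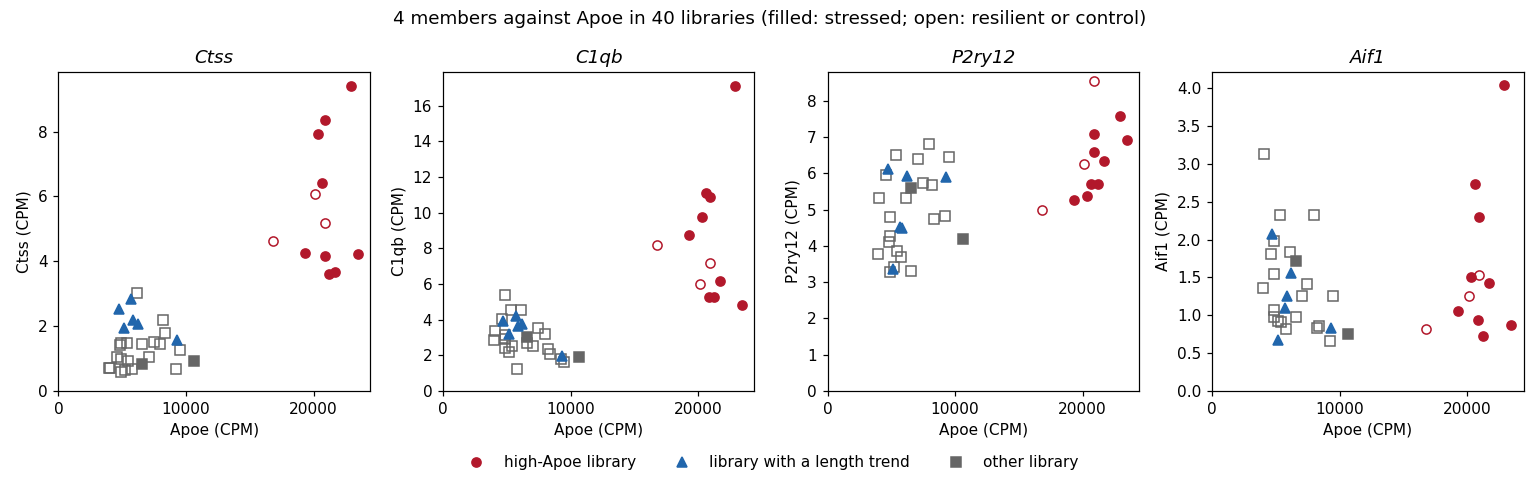
Level of Ctss, C1qb, P2ry12 and Aif1 (y axis, CPM) against Apoe (x axis, CPM) in 40 libraries; filled symbols are stressed, open symbols resilient or control, and colour gives the kind of library. Ctss was 3.59 to 9.40 CPM in the 12 high-Apoe libraries and 0.585 to 3.03 CPM in the other 28, while the Aif1 ranges overlapped (0.725 to 4.05 and 0.661 to 3.13 CPM).

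The members separated by how closely they followed the high-Apoe libraries. Within its own region, each of the 12 high-Apoe libraries was above every library without high Apoe for Ctss, C1qa, C1qb and C1qc. The same held for 7 of the 12 for Tmem119, 6 for P2ry12 and 4 each for Csf1r, Cx3cr1 and Aif1. This was so in control as in stressed libraries: control 2 of the accumbens, for example, had 6.08 CPM of Ctss, against 1.49 and 0.666 CPM in the other controls. In the 6 libraries with a length trend Csf1r was 3.11 to 5.81 CPM and Ctss 1.58 to 2.82 CPM, against 0.946 to 4.50 CPM and 0.585 to 3.03 CPM in the 22 libraries that were neither. These ranges describe libraries sorted by other measures of the same libraries and were not tested.

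Correlations between members were computed on log2 CPM after the mean of each region was subtracted. Since the libraries fall into 2 sets by Apoe, the values within each set are given beside those over all 40. Over all 40, the closest were C1qa, C1qb and C1qc, with Pearson r of 0.943 to 0.957 over 40 libraries, 0.722 to 0.759 in the 28 without high Apoe and 0.754 to 0.896 in the 12 with it. Within the sets this order did not hold: in the 12, Aif1 had r of 0.843 with C1qa, 0.899 with C1qb and 0.883 with C1qc, but −0.00129, 0.0623 and −0.0164 in the 28, and in the 28 Ctss and C1qc had 0.741. Ctss and Csf1r had r of 0.845 over 40, 0.716 in the 28 and 0.758 in the 12. Ctss and Tmem119 had 0.749, 0.514 and −0.397, so their relation held in only 1 of the 2 sets. Ctss and Aif1 had 0.509, 0.0956 and 0.583, and P2ry12 and Cx3cr1 0.374, −0.0632 and 0.581. These are descriptions over libraries that share depth, processing and pools, with no test.

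Among 12474 genes whose log2 CPM averaged 1 or more, those whose pattern over the 40 libraries was most like that of Ctss were Mtdh (r = 0.948), Sec62 (0.929), AK198376 (0.928), DQ685217 (0.917) and Nlgn2 (0.916). In the 28 libraries without high Apoe their r was 0.751, 0.64, 0.649, 0.749 and 0.706, and in the 12 with it 0.766, 0.54, 0.942, 0.884 and 0.792. Most like the mean of the other 8 members were Mtdh (0.935), Rrbp1 (0.931), Fat1 (0.917), Nlgn2 (0.914) and Plod3 (0.91), with 0.698, 0.647, 0.67, 0.739 and 0.655 in the 28 and 0.837, 0.565, 0.553, 0.365 and 0.582 in the 12. Mtdh is known as a protein of the endoplasmic reticulum membrane and Sec62 as a part of its protein translocation machinery. Rrbp1 is known as the ribosome-binding protein of the endoplasmic reticulum and Plod3 as an enzyme inside it. Fat1 and Nlgn2 encode membrane proteins. Apoe ranked 147 for Ctss, with r of 0.837 over 40 libraries but −0.027 in the 28 and 0.19 in the 12. Aldh1l1, whose promoter drives the tag, had r of −0.0203 with Ctss over 40 libraries.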

How the data were processed

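The authors deposited raw whole-number counts of reads per gene symbol, 1 column per library, with no normalization. Reads were aligned with STAR 2.0.0e and counted with HTSeq on mm10, per the submitters' processing notes. Which annotation, strand option and overlap mode HTSeq used is not given in the sources used here. A row that names no gene held at most 2.31e-05% of the counts and was left out, and reads outside genes were 17.0% to 20.1% of reads counted.

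CPM are counts per M counts in genes. Per region, genes were filtered with filterByExpr of edgeR 4.0.16 (minimum count 10), libraries were scaled by TMM factors, and the 3 conditions were fitted together with the robust quasi-likelihood test, two-sided and adjusted over all genes tested (R 4.3.3). The fit was also run on simulated counts. These held no sets of libraries that stand apart, so that run cannot vouch for the calls here. DESeq2 1.42.0, RLE scaling, no filter, the replicate block, the naming form and libraries left out were alternatives. High Apoe means over 15000 CPM, and a length trend an r over 0.3 over genes of at least 5 CPM with a GENCODE M21 length. Both limits, and the fits without such libraries outside the prefrontal cortex, were set after seeing the data. The prefrontal fits without stressed libraries 1 to 3, or without 4 and 5, leave out these same kinds of library.

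Libraries of a group differed by more than sampling noise in all 52 pairs (chi-square per degree of freedom 8.25 to 293), so each counted as 1. Whether 1 mouse contributed to several regions is not stated, and the p-values reflect variation between pools. Same-numbered resilient and control libraries of the nucleus accumbens deviated together (r 0.245 to 0.517 over 3 pairs), where the block changed no call. Low counts limit precision: a member with 9 counts carries a large counting error.

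Members and gene lists were chosen with earlier results of these data known. All 9 members are named in each comparison, and of each other list up to 4 called genes with the smallest adjusted p. Ms4a7 and Stab1 are the 2 called genes of theirs, and genes with no count were named after their values were seen. Names of promoters matched RefSeq for 6 of 9 members. Values of single genes on the complement and blood leukocyte lists are in part not reported here.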

Additional observations from a re-analysis of the deposited data

Results flagged for a closer look

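In groups of 4 or 5 libraries, 36 sets of values were checked for a single library far from the others, and 3 stood out (chance gives about 1 in 20). Csf1r in stressed prefrontal library 5 was 3.11 CPM, below the 5.35 to 6.13 CPM of the other 4. Tmem119 in stressed hippocampal library 5 was 6.29 CPM, above the 2.43 to 3.31 CPM of the others, and in stressed accumbens library 2 it was 2.87 CPM, above the 1.46 to 1.70 CPM of the others. Both Tmem119 cases are high-Apoe libraries, and the Csf1r case has a length trend.

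In 5 cases the mean difference of resilient minus control mice had opposite signs in a pair of regions, with every resilient library on 1 side of the control mean in each region. The difference between regions was not tested for this contrast. Tmem119 was higher in resilient than in control mice by 0.865 CPM in the prefrontal cortex and lower in the hippocampus (−1.13 CPM). C1qc was higher by 0.329 CPM in the prefrontal cortex, against −1.49 CPM in the hippocampus and −1.98 CPM in the caudate putamen. Aif1 was higher by 0.766 CPM in the prefrontal cortex, against −0.216 CPM in the nucleus accumbens and −0.215 CPM in the caudate putamen. None of these differences passed the test within its region. In the hippocampus, nucleus accumbens and caudate putamen 1 control library each had high Apoe, and no resilient library had.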

How the results depend on the processing

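In the prefrontal cortex Ctss and Csf1r were called higher in stressed mice against control and against resilient mice under every alternative run. The count of 7 members against control mice was 3 within long-named libraries, 3 without stressed libraries 1 to 3, 6 with the replicate block and with no filter, 5 with the naming form as a covariate, and 3 to 7 with 1 library left out (3 without control library 1 or 3). The count of 6 against resilient mice was 3 within long-named libraries and 3 without stressed libraries 1 to 3, 5 with no filter and with the naming form as a covariate (C1qb lost in both), 6 with the replicate block, and 4 to 6 with 1 library left out. C1qb against control mice turned to −0.16 within long-named libraries and −0.00 without stressed libraries 1 to 3, and against resilient mice to −0.04 within long-named libraries. Of values against resilient mice that passed no test, P2ry12 turned to −0.03 within short-named libraries and −0.04 without stressed libraries 1 to 3. Aif1 turned to −0.07 with the naming form as a covariate, −0.40 within long-named libraries and −0.41 without stressed libraries 1 to 3, and ran from −0.08 to 0.32 with 1 library left out. The causes were not tested. Over all genes, 4353 calls against control mice ranged from 1533 to 8347 under the alternatives, and 3875 against resilient mice from 1938 to 7960.

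Elsewhere no member was called under any alternative, except 4 members (from 0) in stressed against resilient hippocampus within short-named libraries. The fits without high-Apoe or length-trend libraries in the other regions, of control regions and of the difference between regions were added after seeing the data and called no member. Long-named libraries of the nucleus accumbens could not be fitted alone, since no residual degrees of freedom remained, and leaving out both kinds of library left no stressed library of the caudate putamen. Outside resilient against control accumbens, the r of paired deviations of same-numbered libraries ran from −0.23 to 0.691. The highest value was in stressed against control hippocampus, where the pairs ran from −0.0745 to 0.691. The replicate number is not said to pair libraries, so the block was not the main fit. Depth limits C1qa most, with 9 counts in the lowest library.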
